A study of Mus musculus with 2 samples.

Results

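The genes described here encode 3 PIWI proteins (Piwil1, Piwil2 and Piwil4) and 7 proteins that make, finish or use their guide RNAs (Mov10l1, Pld6, Asz1, Mael, Pnldc1, Henmt1 and Gtsf1). They were chosen by name, and all 10 were found by identifier among the 43346 genes of the deposited tables. PolyA mRNA had been sequenced from the testis of 1 adult male C57BL/6J mouse, aged 10 weeks, in 2 technical libraries. The mouse carried no labelled mutation, received no labelled treatment, and had no second group to be compared with. Technical replicate 2 was made in 2015, per the labels. Values are given in the order replicate 1, then replicate 2, and n is never more than these 2 technical libraries of 1 animal.

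PIWI proteins are Argonaute relatives of the germ line that carry piRNAs, small RNAs which guide them to transposon transcripts and other RNAs. In the mouse, PIWIL4 (MIWI2) acts in the nucleus of fetal and perinatal germ cells, where it directs DNA methylation to transposons. PIWIL2 (MILI) is present from fetal germ cells into spermatogenesis, and PIWIL1 (MIWI) appears in pachytene spermatocytes and persists in round spermatids. A long single-stranded precursor is unwound, cut at the mitochondrial surface, loaded into a PIWI protein, trimmed at its 3′ end and methylated there. The comparison of Piwil1 with Piwil2 and Piwil4 addresses which stage of this pathway the RNA of an adult testis represents.

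Of the 10 genes, 9 were detected, meaning a level of 1 TPM or more in both libraries. TPM is a transcript level scaled for length and depth. Among all protein-coding genes, 54.6% were detected in the same sense. The exception was Piwil4. The summed level of the 10 genes was 3139.6 and 2198.6 TPM, of which Mael alone held 74.3% and 50.4%. The authors' posterior SD of the gene count was 0 for all 10 in both libraries, so no division of reads with other quantified genes entered these estimates.

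**Figure D1:**
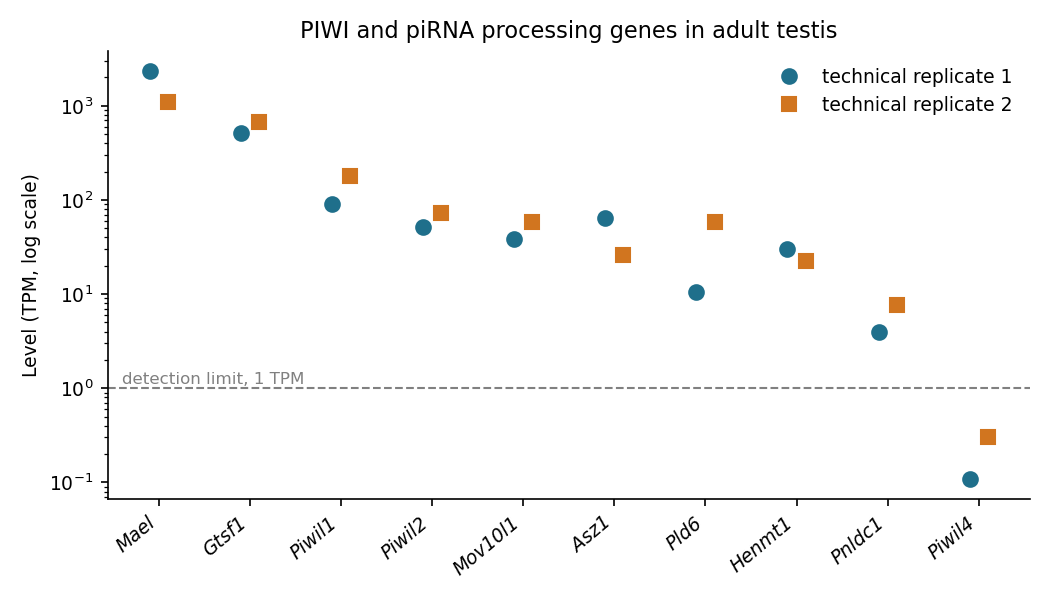
Level of each of the 10 genes in TPM on a log axis, with circles for technical replicate 1 and squares for technical replicate 2, ordered by mean TPM. Mael and Gtsf1 stand highest in both libraries, Piwil4 lies under the dashed detection limit of 1 TPM in both, and Asz1 and Pld6 change places between the libraries.

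The libraries differed from each other by far more than sampling noise. They held 31995377 and 20675551 expected counts (estimated reads), and a chi-square of 576 per degree of freedom separated them over 18589 genes. Each gene's reads were compared between the libraries with an exact conditional binomial test. Calls required an adjusted p under 0.05 together with a difference of at least 2-fold after TMM scaling. Such a call separates the reads of 2 libraries of 1 animal and speaks of no condition. The test called 55.6% of all genes tested, 32.2% higher and 23.3% lower in replicate 2. The median log2 ratio of replicate 2 over replicate 1 was 3.23 in the genes richest in G and C (55.1% or more) and -1.42 in the poorest (43.6% or less).

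Markers of the germ cells and somatic cells of the testis were present in both libraries, at unequal levels. All 8 pachytene spermatocyte markers were detected and summed to 6628 and 6973 TPM, and that list holds Piwil1 itself. Of these 8, 3 were called lower and 0 higher in replicate 2, beside 23.3% and 32.2% of all genes tested. Ldhc held the largest part of both sums (2850 and 4131 TPM). Sycp1 stood at 403 and 105 TPM and Hspa2 at 296 and 728 TPM. All 6 round spermatid markers summed to 1473 and 1354 TPM. Of these 6, 2 were called higher and 1 lower in replicate 2, beside the same shares of all genes. Among them Tssk1 stood at 10.95 and 135 TPM and Spaca1 at 503 and 245 TPM. All 6 elongating spermatid markers summed to 7375 and 47813 TPM. Of these 6, 4 were called higher and 0 lower, beside 32.2% and 23.3% of all genes tested. The calls of the marker lists take no account of GC content. Akap4 among these went the other way, at 2072 and 1283 TPM. Blood markers summed to 27.2 and 226 TPM and macrophage markers to 4.16 and 26.97 TPM. Their part in the members' values was not tested. Of the spermatogonial markers, 7 of 9 were detected (117 and 161 TPM in sum). Sertoli markers were detected in 6 of 7 cases, with Amh at 0 reads in replicate 1, and Leydig markers in 5 of 5. The unequal levels are differences between 2 technical libraries of 1 animal, not between tissues with more or fewer cells of a type. Within a library of bulk tissue, a marker level cannot tell cell number from RNA per cell.

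Piwil1 was the most abundant PIWI gene. Piwil1 (ENSMUSG00000029423.6, chr5:128702524-128755474 on mm10, plus strand) reached 89.9 and 177 TPM, from 7325 and 9150 reads. Piwil1 was quantified as a single transcript, of 22 exons, so its transcript share was 100% in both libraries. It lay at percentile 91.8 and 94.8 of protein-coding genes. The log2 ratio of replicate 2 over replicate 1 was 0.67 (adjusted p = 9.16e-194, exact binomial test), short of the 2-fold limit, and -0.39 once set against genes of the same GC content. Both libraries therefore put Piwil1 high, while its direction between them turned with that correction.

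Piwil2 was the second PIWI gene by level. Piwil2 (ENSMUSG00000033644.4, chr14:70372477-70429383, minus strand) reached 52.1 and 73.2 TPM, from 5338 and 4744 reads, also quantified as a single transcript. Its library log2 ratio was 0.18 (adjusted p = 8.96e-10, exact binomial test) and 0.17 against genes of like GC content. Reads of Piwil2 thus differed by 1.13-fold between the libraries after scaling.

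Piwil4 was close to the limit of what these libraries can show. Piwil4 (ENSMUSG00000036912.13, chr9:14696230-14740733, minus strand) had 6 reads in replicate 1 (exact Poisson 95% interval 2.20 to 13.1) and 12 in replicate 2 (6.20 to 20.96). Its levels were 0.11 and 0.30 TPM. In CPM, reads scaled to the library total without regard to length, Piwil4 stood at 0.188 and 0.580. A count of 0 would still allow 3 reads, or 0.0938 and 0.145 CPM. Piwil1 stood at 229 and 443 CPM. Piwil4 lay at percentile 25.7 and 25.8 of protein-coding genes, and its mean of 9 reads kept it out of the test between libraries.

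Within each library Piwil1 exceeded Piwil2 and both far exceeded Piwil4. Piwil1 over Piwil2 was 1.73-fold in replicate 1 (95% interval 1.67 to 1.79) and 2.43-fold in replicate 2 (2.34 to 2.51), a mean log2 TPM ratio of 1.03 ± 0.35 (SD, n = 2 technical libraries). In reads, without regard to length, the excess was 1.37-fold and 1.93-fold. The direction was the same in both libraries, and the spread between them was larger than the counting error of either. Transcripts of Piwil1 hold 52.5% G and C and those of Piwil2 49.2%, a difference that lay along the gradient between the libraries; its part in the 2 ratios was not tested.

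Piwil1 over Piwil4 was 817-fold and 592-fold in TPM, with log2 ratios of 9.67 (95% interval 8.51 to 11.08) and 9.21 (8.38 to 10.14). Piwil2 over Piwil4 was 473-fold and 244-fold, with log2 ratios of 8.89 (7.73 to 10.30) and 7.93 (7.10 to 8.86). These intervals are exact Clopper-Pearson intervals on length-scaled counts and cover counting error only. They overlapped between the libraries for each pair. Most of their width came from the 6 and 12 reads of Piwil4.

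Of 5 markers of fetal germ cells, 3 had at most 5 reads in either library, and 2 were more abundant than Piwil4. Nanos2, an RNA-binding protein of male fetal germ cells, had 1 and 0 reads, and Dppa3 likewise had 1 and 0. Nanog had 5 and 1 reads, and Pou5f1, the OCT4 gene, had 8 and 90. Dnmt3l, the DNA methyltransferase cofactor that acts with Piwil4 in fetal germ cells, had 83 and 159 reads (3.73 and 12.98 TPM) and was the only marker of the 5 that was detected. The list summed to 4.36 and 18.65 TPM. Nanos2, Dppa3 and Nanog were therefore at or near 0 in both libraries, while Dnmt3l in both and Pou5f1 in replicate 2 were not.

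The AGO proteins, which carry microRNAs in most cells, are the nearest relatives of the PIWI proteins. Their genes stood at 2.24 and 3.22 TPM for Ago1, 4.63 and 4.58 for Ago2, 9.12 and 7.63 for Ago3 and 11.01 and 8.67 for Ago4. Piwil1 exceeded Ago4, the highest of them, 8.16-fold and 20.5-fold, and exceeded Ago1 40.1-fold and 55.1-fold. Piwil2 exceeded Ago4 4.73-fold and 8.44-fold. Piwil4 lay below the lowest of them in both libraries, at 0.0491 and 0.0932 of the Ago1 level. The 2 abundant PIWI genes thus stood above all 4 AGO genes, and Piwil4 below all 4, in each library.

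The precursor helicase Mov10l1 kept a similar gene level in the 2 libraries but was assigned to different transcripts. MOV10L1 is an RNA helicase that binds piRNA precursors and feeds them to the cutting machinery. Mov10l1 (ENSMUSG00000015365.11, chr15:88982909-89055152, plus strand) reached 38.8 and 58.4 TPM from 2937 and 2488 reads. Its library log2 ratio was 0.11 (adjusted p = 0.0068, exact binomial test), and -0.14 against genes of like GC content. Mov10l1-201 held 87.1% of the gene in replicate 1 and 0% in replicate 2, while Mov10l1-203 held 0% and 71.8%. The short Mov10l1-202 held 9.0% and 22.96%.

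These 2 transcripts are nearly the same molecule. They share 4048 bases, and each has 27 exons. Mov10l1-203 begins 85 bases further upstream, at 88982909 against 88982994, and Mov10l1-201 runs 4 bases further at its 3′ end. Of the 85 bases, 56 are noncoding and 29 are the start of the longer coding sequence (3717 bases, against 3561 in Mov10l1-201). RefSeq (GRCm38.p6) places the start of the gene at 88982994, where Mov10l1-201 begins. The 29 coding bases decide whether the longer protein can be read, so they are printed with the start codon in capitals (chr15:88982965-88982993, plus strand).
Mov10l1-203: ATGctgcgccttgctgccaagctggtgtc

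The swap of the leading transcript was complete in the authors' estimates and nearly complete in their posterior means, which gave Mov10l1-201 80.03% and 2.42% and Mov10l1-203 5.59% and 67.4%. The posterior SD of the Mov10l1-201 count was 142 reads in replicate 1, beside an estimate of 2834 reads. That of Mov10l1-203 in replicate 2 was 77.7 reads, beside 2271. Among 9123 detected genes with several transcripts, 33.8% had a different leading transcript in the 2 libraries. In 2.12% each leader held under 1% in the other library, as in Mov10l1. Among the 6 detected members with several transcripts, Mov10l1 was the only member with either pattern. Only reads at the ends of these transcripts can tell them apart, and how evenly each library covered those ends was not tested.

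**Figure D2:**
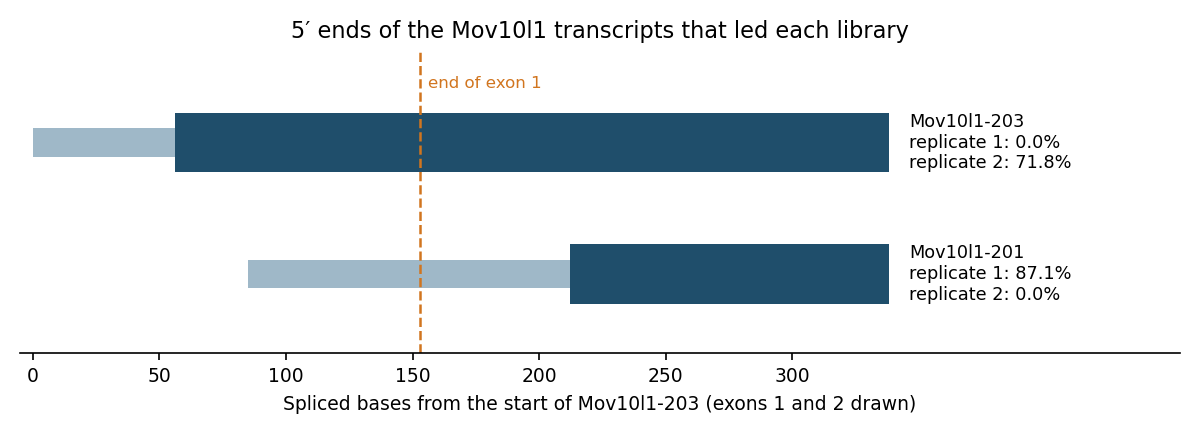
Exons 1 and 2 of the Mov10l1 transcripts, drawn to scale in spliced bases from the start of Mov10l1-203, with thin bars for noncoding and thick bars for coding bases. The upper transcript has 85 extra bases at its start and held 0% and 71.8% of the gene, and the lower held 87.1% and 0%.

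MOV10, the relative of MOV10L1 found in many tissues, was far lower in replicate 1. Mov10 stood at 0.59 and 10.3 TPM, from 42 and 380 reads. Mov10l1 exceeded it 65.8-fold in replicate 1 and 5.68-fold in replicate 2. The direction held in both libraries. Mov10 was called higher in replicate 2 (log2 ratio 3.51, adjusted p = 1.01e-87, exact binomial test), and its transcript holds 56.7% G and C. Against genes of like GC content its log2 ratio was 0.32.

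Pld6 had the largest ratio between the libraries of the 10 genes, in the direction of replicate 2. PLD6 is the nuclease on the outer mitochondrial membrane, the counterpart of Zucchini in flies, that makes 5′ ends of piRNAs. Pld6 (ENSMUSG00000043648.7, chr11:59783897-59787645, minus strand) stood at 10.45 and 57.7 TPM from 355 and 1122 reads. It was called higher in replicate 2 (4.02-fold, adjusted p = 4.29e-137, exact binomial test). Its most abundant transcript holds 55.6% G and C, and against genes of like GC content its log2 ratio went from 2.01 to -0.40.

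Most reads of Pld6 were assigned to a transcript annotated as noncoding. Pld6-201, a processed transcript, held 100% and 80.8% of the gene, and the coding Pld6-202 held 0% and 19.2%. In reads the coding transcript had 0 and 116.5. The transcripts differ by 4 bases at the end of exon 1 (chr11:59787218-59787221, minus strand), which a splice donor upstream removes from Pld6-201. Pld6-201 also runs 806 bases further at its 3′ end, and reads in that part can be assigned to Pld6-201 alone. How many reads lay there was not tested, so the shares do not show how often each splice donor was used. The joined ends of exons 1 and 2 are shown because these 4 bases, in capitals, shift the reading frame.
Pld6-202: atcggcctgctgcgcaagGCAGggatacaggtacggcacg
Pld6-201: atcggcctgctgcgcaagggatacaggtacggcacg

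Asz1 showed the opposite library ratio. ASZ1 (GASZ) is a germ cell protein with ankyrin repeats that sits on mitochondria beside PLD6. Asz1 (ENSMUSG00000010796.7, chr6:18050964-18109061, minus strand) stood at 64.1 and 26.2 TPM from 2152 and 542 reads. It was called lower in replicate 2 (3.11-fold, log2 ratio -1.64, adjusted p = 1.27e-148, exact binomial test). With 40.8% G and C in its transcript, its ratio against genes of like GC content was -0.24. A single coding transcript, Asz1-201, held 98.7% and 94.0% of the gene.

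Asz1 and Pld6, which act at the same membrane, therefore changed places. Asz1 was 6.14-fold above Pld6 in replicate 1, and in replicate 2 it stood at 0.453 of it. Their coding sequences lie far apart in composition, with 42.9% G and C in Asz1-201 and 63.7% in Pld6-202. The 60 bases at the middle of each coding sequence are printed with G and C in capitals to show that contrast (chr6:18075826-18075885 and chr11:59787275-59787334, both minus strand). They hold 23 and 42 such bases. Pld6-202 held only 0% and 19.2% of its gene. The whole leading transcripts lie closer, with 40.8% G and C in Asz1-201 and 55.6% in Pld6-201. The part of base composition in the change of places was not tested.
Asz1-201: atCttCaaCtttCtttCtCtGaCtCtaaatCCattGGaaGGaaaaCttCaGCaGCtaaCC
Pld6-202: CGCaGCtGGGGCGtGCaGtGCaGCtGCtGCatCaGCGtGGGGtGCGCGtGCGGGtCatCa

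Mael was the most abundant of the 10 genes. MAEL (Maelstrom) is a protein of the nuage, the perinuclear germ granule, needed for transposon silencing and piRNA production. Mael (ENSMUSG00000040629.4, chr1:166201201-166238747, minus strand) stood at 2334 and 1108 TPM from 69020 and 20797 reads, at percentile 99.9 and 99.7 of protein-coding genes. It was called lower in replicate 2 by the exact binomial test (2.60-fold, log2 ratio -1.38), with a p-value too small for the computation to hold. Its transcript holds 46.6% G and C. Against genes of like GC content the log2 ratio was -0.83, the furthest from 0 of the 9 members tested, and short of the 2-fold limit.

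Transcript use of Mael was steady. Mael-201 held 96.9% and 97.3% of the gene and Mael-202 held 3.13% and 2.68%. The minor form skips exon 5 (chr1:166234165-166234206, minus strand), an exon of 42 bases or 14 codons, and its 3′ end is 184 bases longer. Its 2386 and 615 estimated reads were more than those assigned to Pnldc1 as a whole. The exon is shown in capitals between 12 bases of each neighbour, above the same place without it.
Mael-201: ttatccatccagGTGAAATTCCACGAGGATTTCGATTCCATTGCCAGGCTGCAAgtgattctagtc
Mael-202: ttatccatccaggtgattctagtc

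The trimming enzyme Pnldc1 was the lowest of the detected members. PNLDC1 is the exonuclease that trims piRNA precursors to their final 3′ end. Pnldc1 (ENSMUSG00000073460.4, chr17:12888729-12910230, minus strand) stood at 3.99 and 7.74 TPM from 130 and 160 reads. Its library log2 ratio was 0.65 (adjusted p = 2.33e-04, exact binomial test), and -0.14 against genes of like GC content. The gene of PARN, a related poly(A)-specific exonuclease, had a higher level in both libraries. Parn stood at 12.6 and 15.0 TPM, and Pnldc1 reached 0.316 and 0.517 of it.

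Henmt1 was above Pnldc1 in both libraries. HENMT1 is the methyltransferase that caps the trimmed 3′ end and protects it. Henmt1 (ENSMUSG00000045662.12, chr3:108939873-108960774, plus strand) stood at 29.85 and 22.7 TPM from 1026 and 520 reads. Its library log2 ratio was -0.63 (adjusted p = 2.94e-16, exact binomial test), and -0.003 against genes of like GC content. It exceeded Pnldc1 7.48-fold and 2.93-fold. The genes for the last 2 steps of piRNA making thus differed in level more in replicate 1 than in replicate 2.

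Henmt1 kept its main coding form but not the shares of the transcripts that carry it. Henmt1-203 held 82.4% and 49.98% of the gene, and Henmt1-201 held 0% and 38.1%. These 2 transcripts have the same coding sequence of 1185 bases, which together held 82.4% and 88.1%. Henmt1-203 runs 98 bases further at its 3′ end, so the changed shares cannot be placed at the 5′ end alone. First exons of the 2 transcripts lie at chr3:108940084-108940431 (348 bases) and chr3:108940500-108940589 (90 bases), in the order 201 and 203. The antisense gene Gm9857 covers all 348 bases of the first and none of the second. It had 0 and 19 reads (0 and 6.46 TPM). The posterior SD of the Henmt1 gene count was 0 in both libraries, so the authors' estimates divided no reads between the 2 genes. Whether strand was used in counting is not stated here.

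A shorter coding form of Henmt1 was present in both libraries. Henmt1-202 held 17.6% and 11.9%, or 146 and 47.6 reads. It ends in an exon of its own with 27 coding bases, where the other 2 transcripts have a last exon with 426. The 27 bases are printed (chr3:108959057-108959083, plus strand) above the first 27 of the longer exon (chr3:108959910-108959936), to show the alternative endings.
Henmt1-202: ggtctcactctgtacccccagctggcc
Henmt1-203: gtttatacaacctcctacccgagttta

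Gtsf1 was second to Mael per length but not per read. GTSF1 is a small zinc finger protein that binds PIWI proteins and speeds their cutting of target RNA. Gtsf1 (ENSMUSG00000022487.10, chr15:103402405-103430470, minus strand) stood at 516 and 667 TPM from 6379 and 5217 reads. It exceeded Piwil1 5.74-fold and 3.76-fold in TPM, while its reads were 0.871 and 0.570 of those of Piwil1. Its library log2 ratio was 0.06 (adjusted p = 0.034, exact binomial test), and 0.57 against genes of like GC content. It kept the same direction under all scalings tried, between 0.06 and 0.57.

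Gtsf1 had the most annotated transcripts of the 10 genes. Of its 9 transcripts, 5 share one coding sequence of 501 bases, and these held 64.2% and 67.4% of the gene. Gtsf1-201 led in both libraries, with 55.6% and 40.9%. The other coding forms of note were Gtsf1-207 with 24.65% and 27.1%, and Gtsf1-203 with 11.1% and 5.37%. The level of the shared coding sequence was 331 and 450 TPM. Coding use was thus closer between the libraries than the share of Gtsf1-201 alone.

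**Figure D3:**
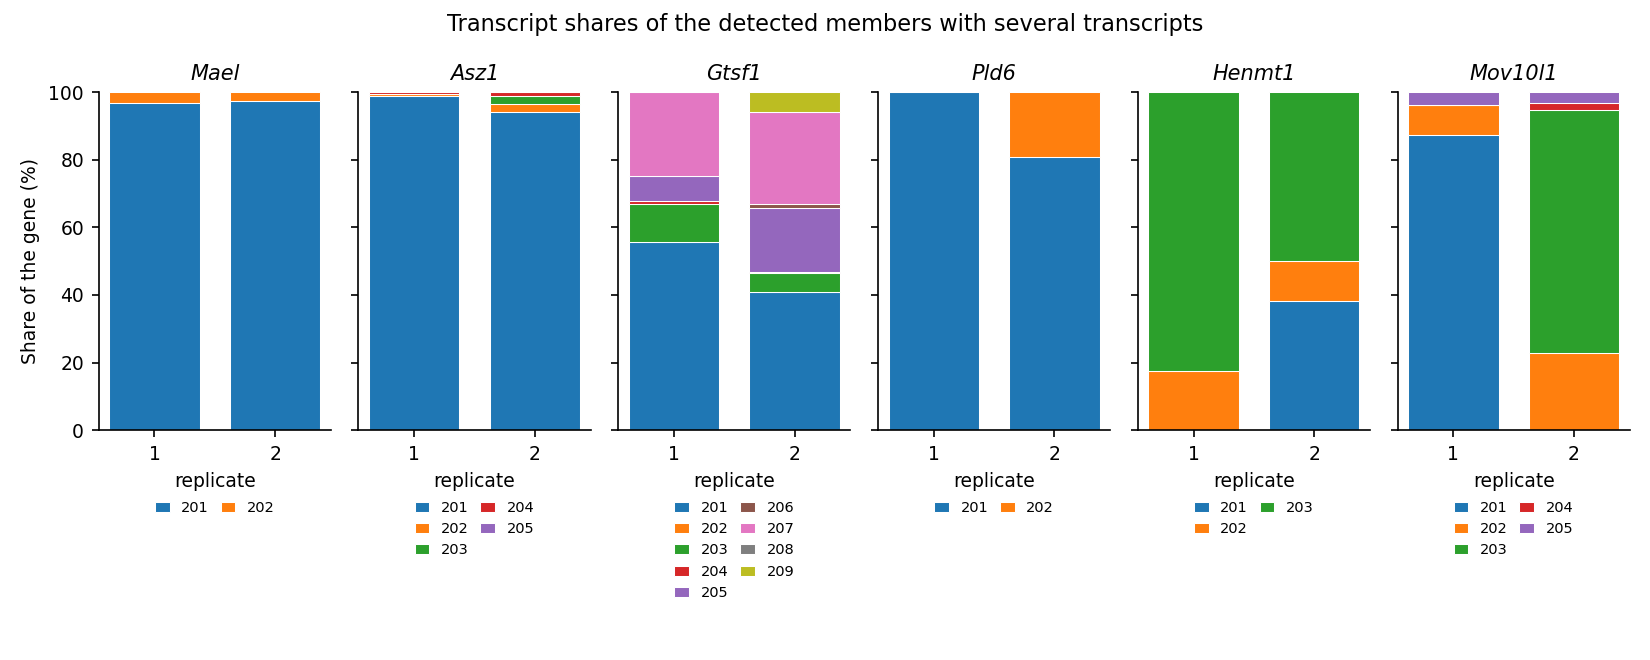
Share of each gene's level held by each annotated transcript, in percent, for the 6 detected members with several transcripts, with a stacked bar for each technical replicate. Mael and Asz1 are nearly the same in both bars, Mov10l1 changes from transcript 201 (87.1%) to 203 (71.8%), and Henmt1-201 and Pld6-202 appear in replicate 2 alone.

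The testis holds relatives of Gtsf1 at levels of the same order. Gtsf1l stood at 194 and 724 TPM and Gtsf2 at 305 and 167 TPM. Gtsf1 exceeded Gtsf2 1.69-fold and 3.99-fold. Against Gtsf1l its direction changed, from 2.66-fold above it in replicate 1 to 0.922 of it in replicate 2. Gtsf1l was called higher in replicate 2 (3.04-fold) and Gtsf2 lower (2.23-fold, adjusted p = 4.16e-144, exact binomial test). Against genes of like GC content the log2 ratio of Gtsf1l was 1.35, still called, while that of Gtsf2 turned to 0.24 and was not called.

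Levels of the 10 genes could be ordered only in part. By mean TPM the order was Mael, Gtsf1, Piwil1, Piwil2, Mov10l1, Asz1, Pld6, Henmt1, Pnldc1 and Piwil4. Of the 9 pairs of neighbours, 6 had the same direction in both libraries with intervals that excluded equal levels. The closest of these was Piwil2 over Mov10l1, at 1.34-fold and 1.25-fold. In the other 3 pairs, Mov10l1 with Asz1, Asz1 with Pld6 and Pld6 with Henmt1, the direction changed between the libraries. The middle of the order, from Mov10l1 to Henmt1, was therefore not fixed by these data.

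Between the libraries, 3 of the 9 members tested were called, Pld6 higher and Asz1 and Mael lower in replicate 2. That share lies under the 55.6% of all genes. The median log2 ratio of the 9 was 0.11, beside 0.01 for all genes tested. The members' ratios followed their GC content, with a Spearman correlation of 0.855 and a Pearson correlation of 0.860 over the 10 genes. Over all tested genes the Spearman correlation was 0.885. These correlations describe genes that share the same 2 libraries. With each gene set against genes of like GC content, 0 of the 9 members were called, beside 19.6% of all genes.

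**Figure D4:**
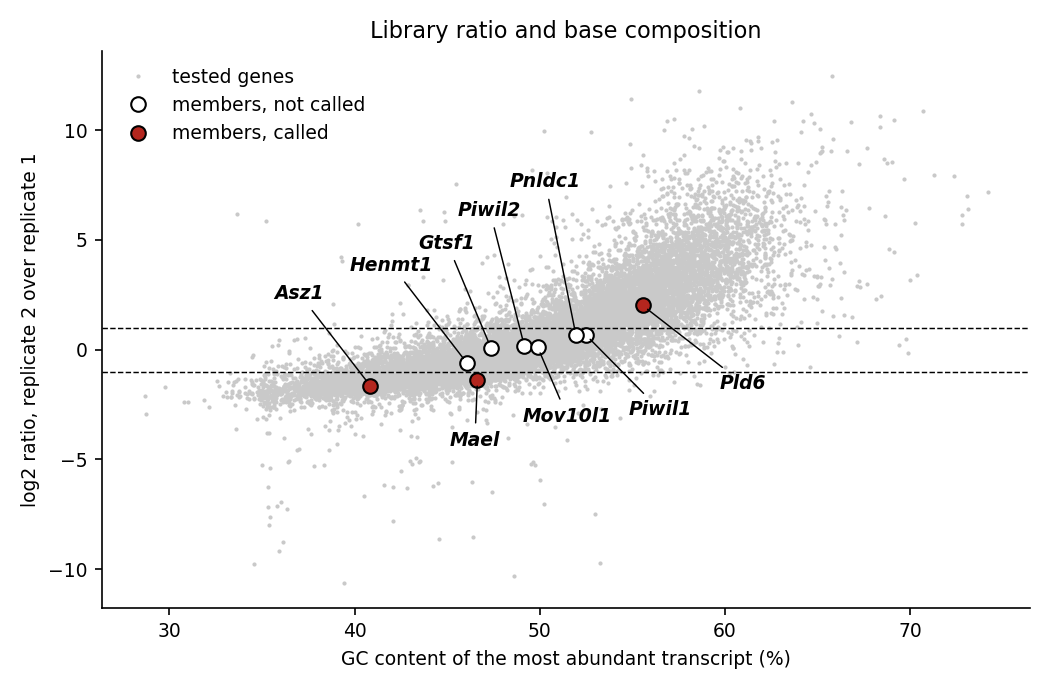
The log2 ratio of replicate 2 over replicate 1 against the GC content of each gene's most abundant transcript, with grey points for tested genes, open circles for members not called and filled circles for the 3 called, and dashed lines at the 2-fold limit. The members lie along the gradient of all genes, from Asz1 (40.8%, log2 ratio -1.64) to Pld6 (55.6%, 2.01).

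Partners of these proteins were widely present. Of 26 further pathway genes, 23 were detected, beside 54.6% of all protein-coding genes, and the 26 summed to 3293 and 3165 TPM. Between the libraries 8 were called higher and 7 lower in replicate 2, or 57.7%, close to the 55.6% of all genes, and their median log2 ratio was -0.14. Against genes of like GC content 5 were called higher and 1 lower, beside 19.6% of all genes. All 8 genes for Tudor domain proteins, which bind methylated arginines of PIWI proteins, were detected. Tdrd6 (203 and 374 TPM) and Tdrd7 (179 and 210 TPM), both chromatoid body proteins, and Rnf17 (201 and 73.6 TPM) were highest, and Tdrd9 (30.4 and 58.5 TPM) and Tdrkh (37.1 and 23.1 TPM) lowest. Of these 8, 2 were called, both lower in replicate 2: Rnf17 (3.38-fold) and Tdrkh (2.12-fold). Against genes of like GC content neither was called, with log2 ratios of -0.31 and 0.004, and Tdrd7 was called higher instead (1.89). Before that correction the log2 ratio of Tdrd7 was 0.49, and most of 1.89 comes from the subtracted median of -1.40.

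The other pathway and germ granule genes were led by the helicases Ddx4 (692 and 319 TPM) and Ddx25 (476 and 475 TPM) and by Gtsf1l. Of these 12 genes, 10 were detected, 6 were called higher and 4 lower in replicate 2, beside 32.2% and 23.3% of all genes. Against genes of like GC content 4 of the 12 were called, beside 19.6% of all genes. All 4 were higher in replicate 2: Fkbp6, Adad2, Spocd1 and Gtsf1l. Adad2 had 6 and 609 reads, and its log2 ratio was 6.90 before a median of 5.23 was subtracted. The log2 ratio of Ddx4 went from -1.43 to -0.19 with that correction. The lowest were Exd1, a PIWI pathway partner of Tdrd12 (5.73 and 6.72 TPM), and Spocd1, which acts with Piwil4 in fetal DNA methylation (0.06 and 3.40 TPM, from 2 and 78 reads). Spocd1 was thus at the floor of replicate 1 only. It was called higher in replicate 2 (adjusted p = 7.06e-25, exact binomial test), with 56.4% G and C in its transcript.

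Of 6 transcription and DNA methylation factors, 5 were detected, 2 were called higher and 1 lower in replicate 2, 3 of 6 beside 55.6% of all genes. Against genes of like GC content none of these 3 was called (Mybl1 -0.09, Dnmt3l 0.13 and Dnmt3c 0.61). Tcfl5 was called lower instead (-3.42), 1 of 6 beside 19.6% of all genes. Before that correction the log2 ratio of Tcfl5 was -0.80, and most of -3.42 is the subtracted median of 2.62. Tcfl5 (323 and 231 TPM) and Mybl1 (113 and 32.0 TPM), transcription factors of pachytene spermatocytes that drive piRNA precursors and pathway genes, were highest, ahead of Dnmt3l. Btbd18, needed for transcription of pachytene precursors, stood at 3.47 and 4.85 TPM. Dnmt3c, the rodent methyltransferase for young transposons in fetal germ cells, stood at 0.22 and 1.23 TPM, from 9.66 and 34.2 estimated reads. Highest and lowest genes of this list were named by level, so their order shows no difference between pachytene and fetal factors. Btbd18 lay below Dnmt3l (3.73 and 12.98 TPM) in both libraries.

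**Figure D5:**
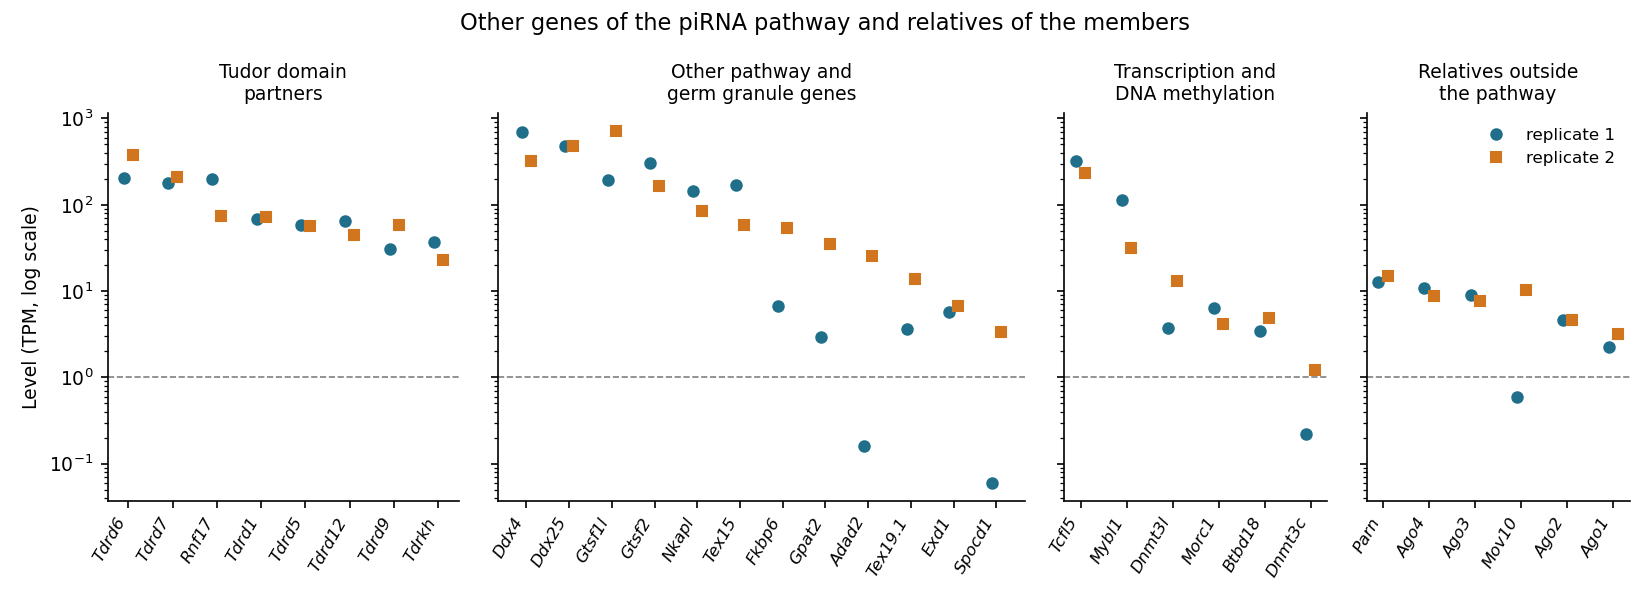
Level in TPM on a log axis of 26 further piRNA pathway genes in 3 groups and of 6 relatives outside the pathway, with circles for technical replicate 1 and squares for technical replicate 2. The Tudor domain genes lie between 23.1 and 374 TPM in both libraries, while Spocd1, Dnmt3c, Adad2 and Mov10 fall under the dashed line of 1 TPM in replicate 1 only.

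Other genes overlap the members, and those that were quantified held few reads. The snoRNA gene Gm22725 and the snRNA gene Gm24890 within Piwil2, and the snRNA gene Gm23737 within Mov10l1, had 0 reads in both libraries. The antisense gene Gm10706, which shares 137 exonic bases with Piwil4, and the pseudogene Gm15586 also had 0. The overlapping genes 4930553I04Rik, at Piwil1, and AL589878.1, at Pnldc1, were not among the genes the authors quantified. AL589878.1 is antisense and shares 144 exonic bases with Pnldc1. Whether reads of it were counted for Pnldc1 cannot be seen here. Of the overlapping genes quantified, Gm9857 at Henmt1 was the only gene with any read.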

How the data were processed

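PolyA mRNA of 1 testis was analysed in 2 technical libraries. For each library the authors deposited a gene and a transcript table, quantified on mm10 with annotation release M4, per the deposited notes. Aligner and quantifier: not given in the sources used here. Values deposited by the authors are expected counts (estimated reads), TPM, FPKM, and each transcript's share of its gene as a percent. Effective lengths, posterior SDs and bounds for TPM also came from the authors' tables.

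Names, transcript structures and GC content (of the most abundant transcript) came from GENCODE M21 on the same assembly, joined on the unversioned identifier, which 42462 of 43346 genes shared. M21 lengths differ from the deposited ones for Piwil1, Piwil2, Pnldc1 and Henmt1-203. Entries that name no gene (26248 numeric and 97 spike-in) held 5 and 0 counts and were left out.

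Levels of 2 genes were compared within a library by their TPM ratio, with a 95% Clopper-Pearson (exact) interval on counts scaled by effective length. A pair was ordered where both intervals excluded 1 in the same direction. Expected counts were rounded, scaled by TMM (factors 0.907 and 1.10, edgeR 4.0.16) and compared between libraries by an exact two-sided conditional binomial test. Benjamini-Hochberg adjustment covered the 18589 genes that averaged at least 10 counts. Log2 ratios used counts plus 0.5. Ratios against genes of like GC content subtract the median ratio of each of 100 bins of equal gene number; GC content was known for 99.0% of genes tested. With plain totals the median log2 ratio of all genes was 0.29, and in TPM it was 0.26, so all TPM values of replicate 2 include such a shift. Reads are not independent molecules, so intervals and floors hold counting error alone. On simulated counts of 18589 genes for this comparison, the test recovered 94.5% of 200 genes changed 4-fold. Those counts held counting error alone around a profile pooled over both libraries, without the GC gradient. The recovery therefore does not describe how the test performs on the real libraries.

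The members, gene lists and tests were chosen with earlier results of these data known. Named were all 10 members, the 3 highest and 2 lowest genes by mean TPM of each pathway list, all relatives, and all genes overlapping a member. No gene was named for likeness of pattern, which 2 libraries cannot measure. Alternatives covered units, detection limits, count filters, ratio limits, plain totals, DESeq2 1.42.0 size factors, GC content, an edgeR exact test with an assumed coefficient of variation of 0.1, and each library alone. Other tools were Python 3.11.15 with scipy 1.17.1, pandas 2.3.3, numpy 2.4.6 and matplotlib 3.10.9, and R 4.3.3.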

Additional observations from a re-analysis of the deposited data

How the results depend on the processing

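Directions between the 3 PIWI genes held under every alternative run (FPKM, posterior mean TPM, unscaled counts, protein-coding transcripts of 450 bases or more, each library alone). The mean log2 ratio of Piwil1 over Piwil2 was 0.70 in unscaled counts and ran from 0.79 to 1.28 in single libraries. Piwil1 over Piwil4 was 8.77 in posterior mean TPM and 9.91 in unscaled counts, and 9.21 to 9.67 in single libraries. Piwil2 over Piwil4 was 7.73, 9.21 and 7.93 to 8.89 in the same order. Detected members numbered 9 in each library alone and at 0.5 TPM, and 8 at 5 TPM. The 3 calls between libraries became 6 at a ratio limit of 1.5 (70.7% of all genes), 1 at a limit of 4 (4376 of 18589 genes, 23.5%) and 0 after GC correction (3614 of 18404 genes, 19.6%, beside 10331 of 18589 without it). In that correction the log2 library ratio changed sign for Piwil1 (-0.39), Mov10l1 (-0.14), Pld6 (-0.40) and Pnldc1 (-0.14), and Asz1 and Mael lost their calls. Of 36 combinations of a member and a setting with a test, 30 kept direction and call, and the 9 ratios in TPM, which have no test, kept direction. Leading transcript shares from posterior means or expected counts moved by at most 5.48 percentage points, except Piwil4-201 (50% to 27.4%). In single libraries Mov10l1-201 ran from 0% to 87.1% and Piwil4-201 from 0% to 100%. No paired analysis was possible because there is 1 group. Depth limits Piwil4 and its transcript shares, which rest on 6 and 12 reads.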
